A study of Mus musculus with 17 samples.

Results

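*Tex15* (testis expressed gene 15, ENSMUSG00000009628) was followed in RNA sequencing of mouse oocytes with and without the histone methyltransferase gene *Ehmt2*. It is 1 gene of the 2615 in the deposited count table, found there by its gene name. It was chosen by its lower counts in the oocytes without *Ehmt2*, between the same 6 libraries described here, so its values are a description with no test. Every gene in that table had already been selected for a difference between these 6 libraries: 0 of the 2615 have a deposited adjusted P at or above 0.05. Genes outside the table were not analysed here, and *Ehmt2* itself is among them, so its counts give no check of the genotype labels.

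Both groups were C57BL/6J mice of 8 weeks, labelled as MII oocytes, that is, oocytes at metaphase of the second meiotic division. The 3 control libraries (replicates 1, 2 and 6) came from Ehmt2(flox/flox) mice. In these mice a part of the gene is flanked by recombination sites, and the gene is intact. The 3 *Ehmt2* GKO libraries (replicates 3, 4 and 5) came from mice with the same floxed alleles and Gdf9-Cre, a recombinase driven by the promoter of the oocyte growth factor gene *Gdf9*, which acts in oocytes from the primordial follicle stage on and not in earlier germ cells. The study's text calls the sequenced oocytes superovulated and does not give the stage of these libraries in each group. It reports that few GKO oocytes completed the first meiotic division in culture, and that superovulated ones failed to separate homologous chromosomes. It concludes that oocytes without *Ehmt2* arrest at metaphase of that division. The MII label may thus not hold for the GKO libraries. A difference in meiotic stage between the groups cannot be told apart from the genotype here. The poly(A) RNA was amplified from very little material. The labels do not say whether the libraries came from separate animals, so the spread between replicates may be partly technical. In libraries of pooled oocytes, fewer transcripts in every oocyte and fewer oocytes with the transcript cannot be told apart.

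TEX15 is a large germ cell protein known mainly from the testis. In male mice it is needed for the repair of meiotic double-strand breaks and for chromosome synapsis, and it acts with the piRNA pathway, which uses small RNAs to direct DNA methylation to transposons in fetal germ cells. EHMT2, also called G9a, places the repressive mark H3K9me2 (dimethylation of lysine 9 on histone H3).

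On the GRCm38 build, *Tex15* spans bases 33516738 to 33585582 of chromosome 8 and is transcribed from the plus strand. GENCODE vM21 gives it 4 transcripts, the longest of 8405 nt in 4 exons, and the exons of all transcripts together cover 9622 nt. In that annotation 0 genes overlap it, and 0 transcripts of other loci are near-identical to its longest transcript. That search counted only matches over 50% or more of the transcript. Shorter stretches shared with other loci were not tested.

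*Tex15* was an abundant transcript of the table in control oocytes and far lower in GKO oocytes. The raw counts were 3726, 3047 and 3334 in control replicates 1, 2 and 6. They were 359, 362 and 324 in GKO replicates 3, 4 and 5. The groups lay far apart, and every GKO library still held at least 324 reads, so the transcript was reduced and not absent.

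After division by size factors, which place the libraries on a common scale, the control values were 3656, 2945 and 3224 normalized counts. The GKO values were 352.1, 384.8 and 340.1 normalized counts. Control replicate 1 was the highest of its group and replicate 2 the lowest, with a ratio of 1.24 between them, whereas the corresponding ratio in GKO oocytes was 1.13. Even the lowest control library was 7.65-fold above the highest GKO library.

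The mean was 3275 ± 358 normalized counts in control oocytes and 359 ± 23.1 in GKO oocytes (SD, n = 3 each), a ratio of means of 9.12. GKO oocytes thus held 11.0% of the control mean, and the 3 libraries held 10.8%, 11.8% and 10.4%. The fitted log2 fold change (GKO over control) was -3.28 with a standard error of 0.122. The coefficient of variation was 10.9% in control and 6.45% in GKO libraries. The SD of the raw control counts was 5.87 times the SD that read counting alone would give, whereas the ratio was 1.13 in GKO libraries, close to counting error. At an equal coefficient of variation this ratio is smaller where counts are lower, so it does not compare the spread of the groups.

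**Figure D1:**
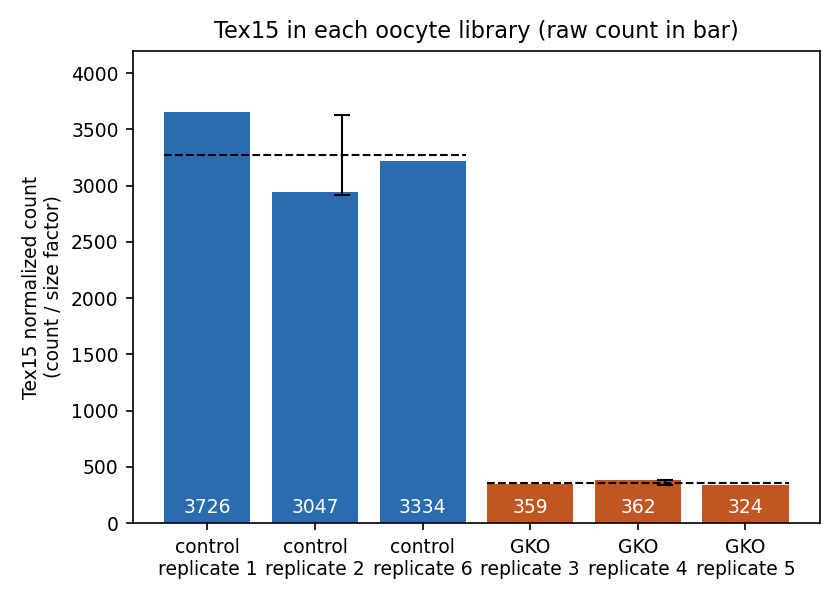
*Tex15* normalized counts (vertical axis, count divided by size factor) in the 3 control and 3 GKO oocyte libraries, with the raw count written in each bar, the group mean as a dashed line and the SD as an error bar. The control bars stand between 2945 and 3656 and the GKO bars between 340.1 and 384.8.

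Among the 2615 listed genes, *Tex15* ranked 252nd by mean normalized count in control oocytes and 1248th in GKO oocytes. Per kilobase of annotated exon, which allows levels of different genes to be compared, it had 340.4 ± 37.2 normalized counts in control and 37.3 ± 2.40 in GKO oocytes (SD, n = 3 each). Those levels stood at the 76.6th and the 31.0th percentile of the 2613 listed genes with an annotated length. It thus moved from the upper to the lower part of the listed range.

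The next comparison asked how the change of *Tex15* stood among listed genes of like abundance. A gene was called when its absolute log2 fold change exceeded 1 and its adjusted P was below 0.01 in edgeR's quasi-likelihood test with Benjamini-Hochberg adjustment. Of 2516 genes tested, 897 (35.7%) were called, and 426 (16.9%) were called lower in GKO. Because the table holds only preselected genes, these shares and all adjusted P values restate that selection.

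*Tex15* had the lowest log2 fold change of the 207 tested genes that were lower in GKO oocytes and had a control mean within 2-fold of its own, from 1637.5 to 6550.0 normalized counts. The other 206 had a median log2 fold change of -0.50 (quartiles -0.72 and -0.39), against -0.76 over all 1272 tested genes that were lower. Their GKO level was, at the median, 75.2% of control, whereas that of *Tex15* was 11.0%. Of the 206, 20 were called, against 33.5% of all 1272 tested genes that were lower, and 0 were below -2 on the log2 scale. At such counts small falls can pass the selection of the table, here down to a log2 fold change of -0.26. The median and the share called thus depend on abundance, and the part of the selection in them was not tested. Listed genes that were higher in GKO oocytes are not in this set.

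The neighbours of *Tex15* in this order were well separated from it. *Tmem230*, for a membrane protein of vesicle trafficking, ranked next, with 5158, 4541 and 5024 normalized counts in control and 1430, 1565 and 1672 in GKO libraries. It fell by 1.75 on the log2 scale (SE 0.103, adjusted P = 8.17e-10). *Paip2*, whose product restrains the poly(A)-binding protein in translation, fell by 1.73 (SE 0.113, adjusted P = 3.13e-09), from 1967 to 2354 normalized counts in control libraries to 691 to 715 in GKO libraries. The transcript *2810408I11Rik* fell as well (adjusted P = 3.12e-08), from 2284 to 2540 normalized counts in control libraries to 830.2 to 1057 in GKO libraries. These 3 genes kept 31.7%, 32.2% and 37.7% of the control mean, each more than *Tex15*.

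Replicate spread did not set *Tex15* apart in this group of genes. Of the other 206 genes, 144 had a lower coefficient of variation in control libraries and 91 had a lower one in GKO libraries. The medians of the 206 were 8.28% and 7.27%. For 184 of the 206 the control and GKO values did not overlap, as for *Tex15*, and the same held for 92.8% of all tested genes that were lower and 96.1% of all tested genes.

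**Figure D2:**
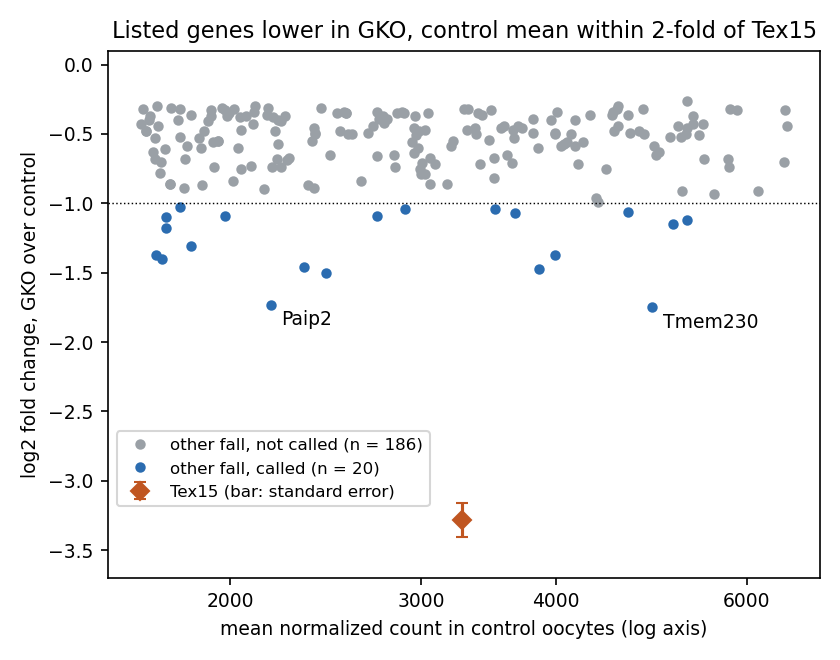
Fitted log2 fold change (GKO over control, vertical axis) against the mean normalized count in control oocytes (horizontal log axis) for *Tex15* and the 206 other listed genes that were lower in GKO with a control mean within 2-fold. *Tex15*, with its standard error as a bar, lies at -3.28, and the next gene, *Tmem230*, at -1.75.

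Over all tested genes, without regard to abundance, 13 had a lower fitted log2 fold change than *Tex15*. Most of them were far lower in level: 10 of the 13 had a control mean under 100 normalized counts. The other 3 were *AC167192.3*, *2410141K09Rik* and *Slc16a12*, with control means of 1064.9, 445.2 and 194.2 normalized counts. *Tex15* thus had the highest control level of all genes with so low a log2 fold change.

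The surroundings of *Tex15* on chromosome 8 were examined next. Of 40 annotated genes within 1 Mb of its ends, 15 of them protein coding, 5 were in the count table. Of these 5, 3 were lower and 2 higher in GKO oocytes, and 2 were called, one in each direction, beside 35.7% of all tested genes. No listed neighbour had a log2 fold change as low as that of *Tex15*.

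The pseudogene *Gm6877* lies 324 kb before *Tex15*. It had 46, 33 and 46 raw counts in control libraries and 8, 16 and 13 in GKO libraries. It fell by 1.75 on the log2 scale (SE 0.384, adjusted P = 0.000633). Its transcript is near-identical to *Gtpbp10*, at another locus, so its reads are uncertain.

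The nearest listed gene is *Gsr*, encoding glutathione reductase, which keeps glutathione in its reduced form, 66.9 kb after *Tex15*. Its raw counts were 70, 88 and 107 in control and 115, 184 and 158 in GKO libraries, and its log2 fold change was 0.79 (SE 0.239, adjusted P = 0.00501), which was not called. The next, *Gtf2e2*, for a subunit of the general transcription factor TFIIE, lies 146 kb after it. *Gtf2e2* had 1567, 1783 and 1913 raw counts in control and 1388, 1216 and 1070 in GKO libraries, with a log2 fold change of -0.53 (SE 0.114, adjusted P = 0.00059), also not called. The listed genes closest to *Tex15* thus had differences of opposite sign and of smaller size.

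Farther away, *Gm10131* (525 kb after, near-identical to *Erh*) had a log2 fold change of -0.95 (SE 0.271, adjusted P = 0.00356), with raw counts of 154, 160 and 105 in control and 105, 53 and 62 in GKO libraries. Its groups overlapped after normalization and it was not called, although it was called without control replicate 6 (-1.13) or without GKO replicate 3 (-1.28). The pseudogene *Gm4889* (742 kb after) had 83, 41 and 83 raw counts in control and 189, 157 and 132 in GKO libraries. It rose by 1.20 (SE 0.264, adjusted P = 0.000657), a call that was lost without control replicate 2 (0.92). Control replicate 2 was its lowest library.

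**Figure D3:**
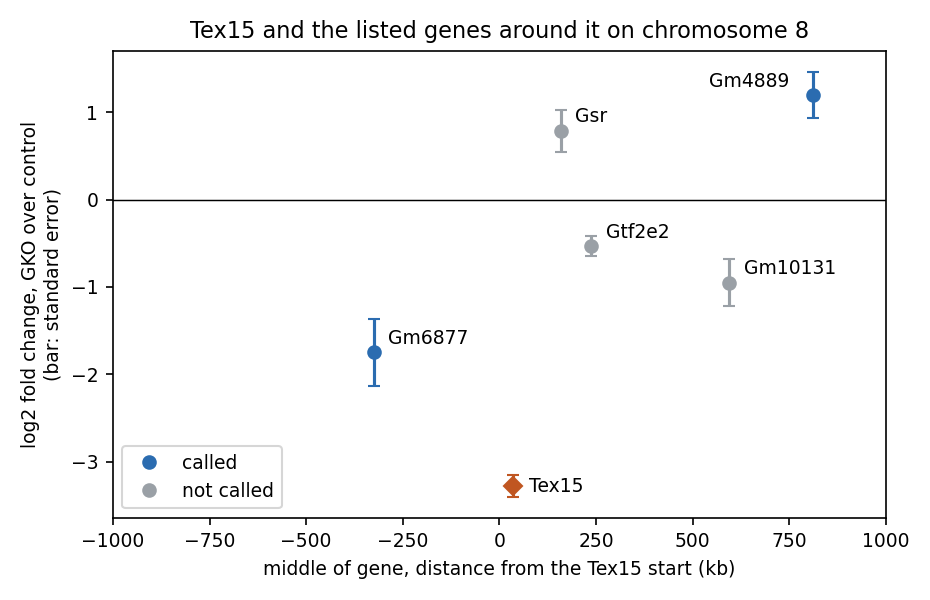
Fitted log2 fold change with its standard error (vertical axis) of *Tex15* and the 5 listed genes within 1 Mb, placed by the distance of the middle of each gene from the start of *Tex15* in kb (horizontal axis), with called and uncalled genes in different colours. *Tex15* stands at -3.28, and its listed neighbours lie between -1.75 and 1.20.

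*Tex15* was then set beside listed genes of the processes it is known for. Of 30 genes of the piRNA pathway and transposon silencing, 2 were in the table, and 0 were called, against 35.7% of all tested genes. *Morc1*, a transposon repressor of male germ cells, had a log2 fold change of -0.48 (SE 0.146, adjusted P = 0.00488). *Tex19.1*, which limits retrotransposons in germ cells, had one of 0.60 (SE 0.116, adjusted P = 0.000227). The differences of both were under 1 on the log2 scale, and they had opposite signs.

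Of 48 genes of meiotic recombination and synapsis, 7 were in the table, 6 lower and 1 higher in GKO oocytes. Their median log2 fold change was -0.77, beside a median of -0.32 over all 2516 tested genes. Of these tested genes, preselected for a difference, 1272 were lower and 1244 higher. The overall median thus lies between falls and rises and is not a typical change. Of the 7 genes of meiotic recombination and synapsis, 2 were called, both lower. Over all tested genes, 16.9% were called lower and 35.7% in either direction. With only 7 genes, 2 calls cannot be told apart from those shares. *Sycp1*, for the transverse filament of the synaptonemal complex, fell by 1.19 on the log2 scale (SE 0.138, adjusted P = 1.72e-06), from 1314 ± 293 to 612 ± 51.2 normalized counts (SD, n = 3 each). *Mnd1*, whose product assists strand exchange by DMC1, fell by 1.42 (SE 0.252, adjusted P = 0.000116), from 165 ± 25.5 to 65.3 ± 21.7. A near-identical copy, *Mnd1-ps*, makes the reads of *Mnd1* uncertain. Among the uncalled, *Mei4*, needed for meiotic double-strand breaks, had a log2 fold change of -0.59, *Tex11*, of meiotic crossover formation, -0.86, *Syce2*, of the central element of the synaptonemal complex, -0.32, and *Tex12*, its partner, 0.35.

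Genes that share the *Tex* symbol are named for expression in the testis and are not one family of sequence. Of 37 other such genes, 9 were in the table, 6 lower and 3 higher, and 0 were called. Their log2 fold changes ran from -0.86 to 0.66 with a median of -0.61. Over the lists together, 15 genes other than *Tex15* were in the table, 12 lower and 3 higher, and 2 were called, against 35.7% of all tested genes. Those taken by their *Tex* symbol alone may not be specific to germ cells. The lowest log2 fold change among the 15 was -1.42, against -3.28 for *Tex15*.

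By level per kilobase of exon, *Tex15* stood 8th of these 16 genes in control oocytes and 15th in GKO oocytes. In control libraries its values, 306 to 380 normalized counts per kb, overlapped those of *Sycp1* (314 to 464), *Tex14* (263 to 326) and *Tex26* (221 to 362), so the order among these 4 was within their spread. In GKO libraries its values, 35.3 to 40.0 per kb, overlapped those of *Tex261* (29.6 to 40.5) and *Morc1* (38.2 to 43.8). The control neighbours *Sycp1*, *Tex14* and *Tex26* had GKO means of 172, 179 and 182 per kb, all above *Tex15*.

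**Figure D4:**
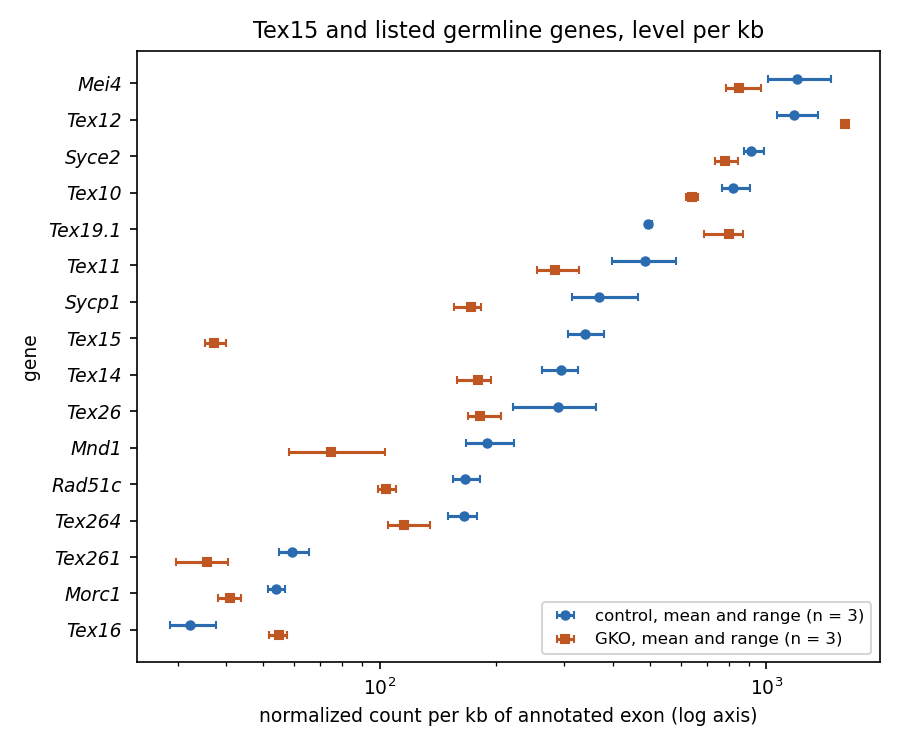
Normalized counts per kb of annotated exon (horizontal log axis) of *Tex15* and the 15 other listed genes of the germline and *Tex* symbol lists (vertical axis). The mean and the range of 3 libraries are shown for control and GKO oocytes. The markers of *Tex15* stand at 340.4 and 37.3, a wider gap than in the other 15 genes.

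The genes whose profile over the 6 libraries was most like that of *Tex15* were found among 1907 genes with a mean of at least 100 normalized counts. The measure was the root mean square difference between log2 profiles centred on their own means. It reflects the size of the shared difference between the groups, and its median over the genes was 1.48. *Cwc22*, for a splicing factor, was nearest at 0.165, with 1602.7 ± 120 normalized counts in control and 214 ± 4.20 in GKO oocytes (SD, n = 3 each), or 13.3% of control. *Slc16a12*, of the monocarboxylate transporter family, followed at 0.248, with 194 ± 32.0 and 16.8 ± 1.61. *Neil3* (0.547), for a DNA glycosylase, *Dnah14* (0.559), for an axonemal dynein heavy chain, and the pseudogene *Gm10364* (0.583) were more distant. Of these 5, *Neil3* lies on chromosome 8 like *Tex15*, outside the 1 Mb window, and *Cwc22* has 7 near-identical loci that make its reads uncertain.

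The labelled cell type was checked against markers. Of 20 oocyte markers, 6 were in the table (*Zp1*, *Zp2*, *Zp3*, *Mos*, *Nlrp5* and *Padi6*), with raw counts from 1763 to 25995 in the 6 libraries, and 0 had a library at zero. Their summed level was 40479.8 to 49609.7 normalized counts in control and 51799.6 to 55917.9 in GKO libraries, but the 6 differed in sign. *Mos*, *Nlrp5* and *Padi6* had log2 fold changes of 0.51, 0.42 and 0.48, none of them called, and *Nlrp5* had the highest counts in the sum. *Zp1* and *Zp2* had -0.86 and -0.40, also not called, and *Zp3*, for a protein of the zona pellucida around the oocyte, fell by 1.05 (SE 0.0966, adjusted P = 1.58e-07). Of 24 markers of cumulus and granulosa cells, the somatic cells around the oocyte, *Kitl* and *Ptgs2* were in the table and the other 22 were not analysed here. *Kitl* had 368, 325 and 335 raw counts in control and 225, 254 and 188 in GKO libraries, and *Ptgs2* had 6, 10 and 14 in control and 107, 74 and 59 in GKO libraries. *Kitl* had a log2 fold change of -0.63 (SE 0.162), which was not called. *Ptgs2* rose by 2.98 (SE 0.382, adjusted P = 5.46e-06) and was called. These opposite differences offset each other in part in the sum of both. That sum ran from 324 to 367 normalized counts in control and from 259 to 349 in GKO libraries, and the part of these markers in the *Tex15* values was not tested.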

How the data were processed

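Of 17 samples, the 6 oocyte RNA sequencing libraries were used, and 11 bisulfite sequencing samples were not analysed here. The authors deposited raw counts of whole reads per gene. The counting program and annotation are not given in the sources used here. The authors' own comparison, deposited as a fold ratio, the log2 of that ratio and raw and adjusted p-values, was read only to test which genes are listed. Totals over the 2615 listed genes were 4060653 to 4258350 reads per library, and full depth is unknown. Within-group pairs differed by more than sampling noise (chi-square of 10.7 to 23.3 per gene).

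Counts were fitted with edgeR 4.0.16 in R 4.3.3 (filterByExpr at a minimum count of 10, TMM, quasi-likelihood F-test, Benjamini-Hochberg adjustment over 2516 genes). The standard error of a log2 fold change was its size over the square root of F. Normalized counts were counts divided by DESeq2 1.42.0 size factors, and 1 was added before log2 for profile likeness. Ratios of normalized means thus use another scaling than the fitted log2 fold changes. Both scalings rest on listed genes alone, all selected for a difference. With median-ratio scaling in place of TMM, 358 genes were called lower and 523 higher, against 426 and 471. With 3 libraries against 3, an exact permutation test could not go below 0.10. Near-identical copies were transcripts of other loci that blastn 2.17.0 aligned at 95% identity or more to the longest transcript of a named gene. The aligned part had to cover 50% or more of that transcript. The fits were tested on simulated data in which most genes were unchanged. Every listed gene was preselected for a difference, so that simulation does not test the scaling used here. Alternatives were DESeq2, limma 3.58.1 voom, other scalings, filters and windows, and each library left out.

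*Tex15* and the gene lists were chosen with earlier results of these data known. Genes were named by rule: listed genes within 1 Mb, called genes of the germline lists and the most abundant uncalled ones, the 3 nearest in rank, the 5 nearest in profile, and markers where 5 or fewer were listed. The 6 oocyte markers and the genes deeper than *Tex15* in fold change were named outside it, after their values were seen.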

Additional observations from a re-analysis of the deposited data

How the results depend on the processing

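The log2 fold change of *Tex15* lay between -3.36 and -3.19 over 12 alternatives. Its rank among falls of similar abundance was 1 in 13 of 14 alternatives and 2 when control means within 4-fold were taken, where *AC167192.3* ranked first. A test against a fold change of 2 gave 260 called genes against 897 by the main criteria, and the other 13 alternatives were within 1.5 times of 897. Within 0.5 Mb of *Tex15*, 3 genes were listed, and within 2 Mb, 7. The 2 called germline genes stayed at 2 in number in the 9 alternatives counted. Their calls were not counted by voom, by library size only, with at least 10 counts in every library, or against a fold change of 2. No paired analysis was possible because control and GKO libraries carry different numbers. The preselected table limits every P value, and depth over genes outside it is unknown.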

Other observations

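Among 726 tested genes with a control mean of at least 1000 normalized counts, 5 had a log2 fold change below -2, a limit chosen after the values were seen. *Tex15* was one, and the other 4 were *AC167192.3*, *Cwc22*, *Neil3* and *Dnah14*. *AC167192.3*, on chromosome 13, had 1232, 1012 and 1042 raw counts in control and 5, 4 and 3 in GKO libraries. It thus came close to absence, which *Tex15*, with at least 324 reads in every GKO library, did not. *Neil3* had 22677, 22435 and 23980 raw counts in control and 3650, 4118 and 6193 in GKO libraries, with a GKO coefficient of variation of 31.3% against 6.45% for *Tex15*. *Dnah14* had 336, 334 and 200 raw counts in GKO libraries, with a coefficient of variation of 26.0% after normalization. *Tex15* and *Cwc22*, with a GKO coefficient of variation of 1.97%, were more even in GKO oocytes than *Neil3* and *Dnah14*. *Cwc22* had 216, 198 and 208 raw counts there, a spread below what read counting alone would give on average. Its value is thus no measure of evenness between oocyte samples, and its 7 near-identical loci make its reads uncertain. *AC167192.3*, with 5, 4 and 3 reads, is too low for its spread to be compared.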
